A study of Mus musculus with 12 samples.

Results

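The Sox genes encode transcription factors that bind DNA through a high-mobility-group box related to that of Sry, and 10 of them were followed across 4 populations of sorted mouse colon adenoma cells: Sox4, Sox5, Sox6, Sox7, Sox9, Sox11, Sox12, Sox13, Sox17 and Sox21. They were taken by gene symbol from a list drawn up with earlier results of these data known. They are 10 of the 20 Sox genes on the array, with Sry counted. They correspond to 30 of the 28898 probe sets that carry exactly 1 symbol (10 of 17097 symbols). Cells from adenomas of 3 mice, MKL347, MKL358 and MKL367, had been separated by both markers, which gave double positive (Mex3a+ Lgr5+), double negative (Mex3a- Lgr5-) and the 2 single positive populations, Mex3a+ Lgr5- and Mex3a- Lgr5+. Each mouse gave 1 Affymetrix array per population, which makes 12 arrays in 4 groups of 3, and each pool combined cells of several adenomas (500 sorted cells per pool for MKL358, 2000 for the other mice). All mice carry the label ki/+, whose allele the labels do not name, and neither an age nor how Mex3a and Lgr5 were detected is given. From each pool 25 ng of RNA was amplified and 8 µg of cDNA labelled. Mex3a is an RNA-binding protein; Lgr5 is the R-spondin receptor by which crypt stem cells are recognised. The comparison asks which transcripts differ with Mex3a status and which with Lgr5 status. In sorted pools, fewer cells with a transcript and less of it per cell cannot be told apart.

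Sox proteins bend DNA at short AACAAT-like sites and act together with partner factors. They are grouped by the similarity of their boxes. Sox4, Sox11 and Sox12 form the C group, activators known from progenitor cells of many tissues. Sox5, Sox6 and Sox13 form the D group, which lacks a known activation domain and works as dimers, often beside Sox9. Sox9, of the E group, is known from the crypt base, where it is a target of Wnt signalling and is needed for Paneth cells. Sox7 and Sox17, of the F group with Sox18, are known from endothelium, and Sox17 also as an antagonist of β-catenin. Sox21, a repressor of the B group, is known from neural progenitors and the foregut.

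RefSeq promoter windows were held for 7 of the 10 genes, 12 windows in all, because Sox6 has 6 start sites. Each window is the 250 bases upstream of a start in GRCm38.p6. In that assembly Sox11 lies at chr12:27334268-27342718, Sox4 at chr13:28948919-28953699, Sox6 at chr7:115470872-116040776, Sox12 at chr2:152393611-152398046, Sox13 at chr1:133382300-133424459, Sox9 at chr11:112782210-112787757 and Sox21 at chr14:118233233-118237030. Windows are shown for Sox11, the gene with the largest difference between the sorted populations, for Sox21, called for both markers once arrays were paired by mouse (as was Sox4), and for the pair of Sox6 starts in which a searched motif was found. They are written 5′ to 3′ along the gene's strand (minus for each), with motif matches in capitals. The motifs were CTTTGAT, a Tcf/Lef site, and AACAAT, a Sox site, both searched on both strands.
Sox11, chr12:27342719-27342968: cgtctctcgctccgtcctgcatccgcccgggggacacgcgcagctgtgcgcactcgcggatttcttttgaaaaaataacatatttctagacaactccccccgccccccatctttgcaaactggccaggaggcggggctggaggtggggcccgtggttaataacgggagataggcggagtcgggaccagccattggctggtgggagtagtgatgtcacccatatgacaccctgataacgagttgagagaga
Sox21, chr14:118237031-118237280: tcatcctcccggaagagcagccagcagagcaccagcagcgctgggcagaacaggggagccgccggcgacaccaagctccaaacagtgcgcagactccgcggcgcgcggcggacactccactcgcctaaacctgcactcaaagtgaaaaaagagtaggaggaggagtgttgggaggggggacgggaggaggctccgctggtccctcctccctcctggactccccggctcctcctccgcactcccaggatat
Sox6, chr7:115995087-115995336: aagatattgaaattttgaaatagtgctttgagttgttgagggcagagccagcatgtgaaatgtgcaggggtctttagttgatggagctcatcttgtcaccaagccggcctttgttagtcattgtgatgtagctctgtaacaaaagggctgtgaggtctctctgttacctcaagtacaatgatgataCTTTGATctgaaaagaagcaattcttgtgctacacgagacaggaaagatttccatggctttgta
Sox6, chr7:115824711-115824960: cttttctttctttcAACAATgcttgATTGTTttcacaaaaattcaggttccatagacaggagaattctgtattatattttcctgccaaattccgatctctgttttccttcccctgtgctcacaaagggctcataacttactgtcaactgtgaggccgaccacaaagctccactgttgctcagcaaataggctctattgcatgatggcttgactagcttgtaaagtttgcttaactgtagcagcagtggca
The Tcf/Lef letters occurred in 1 of the 12 windows, at -64 from a Sox6 start, beside 3.21% of the 32851 mouse promoter windows of this length. The Sox letters occurred in 1 window, 2 times, upstream of another Sox6 start, beside 9.42% of all windows. Neither motif was in the Sox11 or the Sox21 window. The windows of Sox11 and Sox21 were 58.0% and 65.2% G and C, that of Sox12 74.4%, and all windows 53.2%. No binding was measured here, so a match describes letters only.

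The arrays were alike in scale, with median log2 signals of 4.86 to 4.92 and correlations of 0.984 to 0.994 within a population across probe sets. The number of arrays limits the precision. The Mex3a transcript was higher on Mex3a+ arrays by 0.69 on the log2 scale (adjusted p = 0.00177, limma) and by 0.34 with its other probe set (adjusted p = 0.0318). The Lgr5 transcript was higher on Lgr5+ arrays by 1.55 and 1.24 (adjusted p = 0.00124 and 0.00205). Epithelial markers were bright in all populations (Epcam means of 11.47 to 11.69, Krt8 of 11.25 to 11.51). Of 16 epithelial genes 12 were lower and 1 higher in Mex3a+ cells, beside 15.7% and 9.59% of all tested sets. Their summed linear signal was 20593 to 25729 in Mex3a+ Lgr5+, 19739 to 25108 in Mex3a+ Lgr5-, 26547 to 29633 in Mex3a- Lgr5+ and 28736 to 30854 in Mex3a- Lgr5- cells. Their part in the Sox differences was not tested. Probe sets were tested when at least 3 arrays read above 4.40, which is the 40th percentile over the whole matrix. Of the 30 Sox probe sets 19 did so, which covers 9 genes and leaves out Sox7. A probe set that exceeded the level only on the arrays where it is high entered the test through those arrays, which favours a difference. By Mex3a status this held for Sox6 1427677_PM_a_at, Sox11 1431225_PM_at and Sox11 1429372_PM_at (5, 6 and 3 Mex3a+ arrays and 0 Mex3a- arrays), and by Lgr5 status for Sox17 1429177_PM_x_at (4 Lgr5- arrays and 0 Lgr5+ arrays). For these 4, adjusted p-values with all mice come from the fit of all 28898 probe sets with no filter, and the main counts below are given for that fit too. Fits that left out a mouse or an array kept the filter, so these 4 sets are not free of it there.

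Sox11, Sox6, Sox4, Sox12 and Sox21 were higher in Mex3a+ than in Mex3a- adenoma cells, and Sox13 was lower. Averaged over both Lgr5 states (6 arrays against 6), 12 of the 19 tested Sox probe sets were higher and 1 was lower at a limma adjusted p under 0.05. Over all 19883 tested probe sets, 25.3% were called, 9.59% higher and 15.7% lower. With no filter, 15 of all 30 Sox sets were higher and 1 was lower, beside 17.4% of all 28898 sets called, 7.02% higher and 10.4% lower. The median log2 difference was then 0.32 for the 30 Sox sets and 0.011 for all sets. Counting all 30 Sox probe sets, tested or not, 24 were higher in Mex3a+ cells in each of the 3 mice, 1 was lower in each and 5 were mixed. Among all 28898 probe sets with 1 symbol, 28.6% were higher in each mouse and 27.1% lower. Probe sets of 1 gene read the same transcripts and are not separate observations. With 1 probe set per gene, the brightest, 6 of 9 genes were called, 5 higher and 1 lower, beside 3422 of all 12595 genes, 1248 of them higher. With the arrays paired by mouse, 15 of the 19 Sox sets were called (14 higher, 1 lower), beside 39.9% of all sets (15.9% higher, 24.0% lower).

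**Figure D1:**
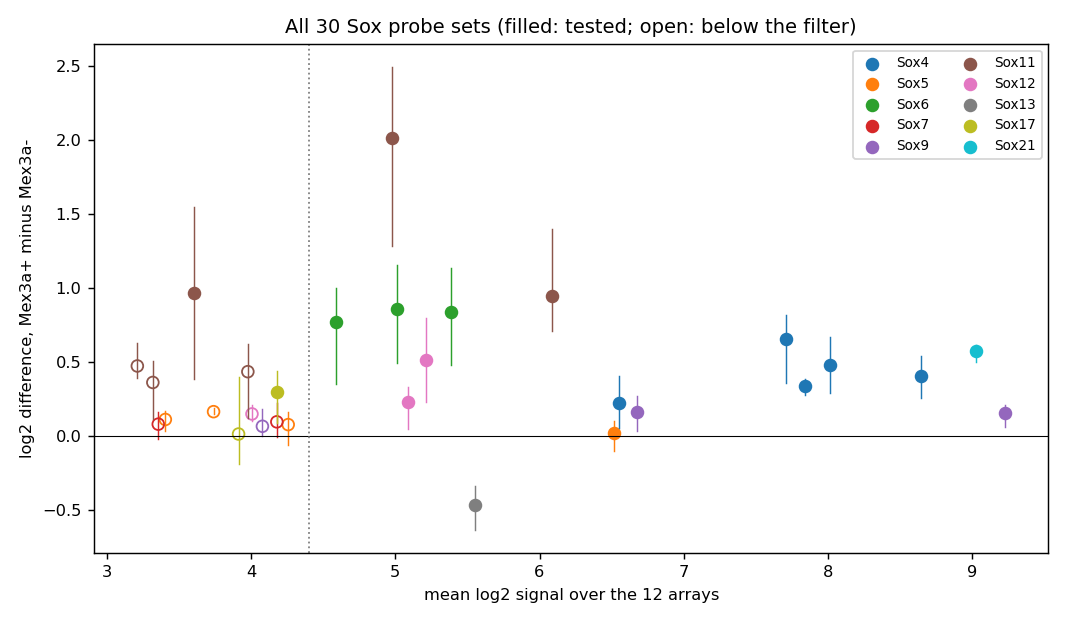
The difference in log2 signal between Mex3a+ and Mex3a- cells (vertical axis, average over both Lgr5 states) against the mean log2 signal over the 12 arrays (horizontal axis) for all 30 Sox probe sets, with colours for genes, lines from the lowest to the highest of the 3 mice, filled points for the 19 tested sets and the filter level of 4.40 as a dotted line. Most points lie above 0, the highest is a Sox11 set at 2.01, and only Sox13 lies clearly below, at -0.47.

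Of the C group, Sox11 differed most. Its probe set 1431225_PM_at read 6.35, 5.56 and 6.58 in Mex3a+ Lgr5+ cells of MKL347, MKL358 and MKL367, and 5.99, 4.94 and 6.46 in Mex3a+ Lgr5- cells. In Mex3a- cells it read 3.95, 4.03 and 4.07 where Lgr5 was positive and 3.88, 3.90 and 3.99 where it was negative. The ranges of the Mex3a+ and Mex3a- arrays did not overlap, and all 6 Mex3a- values lay below the filter level. The measured difference was 2.01 (SE 0.23), at 2.26, 1.29 and 2.49 in the 3 mice, and no fold is given against values below the filter level. With no filter its adjusted p was 0.000149 (limma). MKL358, the mouse with the smaller pools, had the lowest Mex3a+ values and the smallest difference.

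The brighter Sox11 set 1429051_PM_s_at, whose suffix marks probes that can match several transcripts, read 6.44, 6.43 and 6.88 in Mex3a+ Lgr5+ cells and 6.36, 6.41 and 6.85 in Mex3a+ Lgr5- cells. It read 5.67, 5.44 and 5.63 in Mex3a- Lgr5+ cells and 5.66, 5.97 and 5.30 in Mex3a- Lgr5- cells. These ranges did not overlap either, and the set lay above the filter level on every array. It differed by 0.95 (SE 0.134, adjusted p = 0.000535). The dim remaining tested set, 1429372_PM_at, ranged from 3.55 to 4.77 on Mex3a+ arrays and from 2.97 to 3.31 on Mex3a- arrays (difference 0.97, SE 0.20, adjusted p = 0.00465 with no filter). The 3 sets below the filter had differences of 0.36, 0.44 and 0.47, each higher in all 3 mice.

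Sox4, the member of the group with an established role in intestinal tumours and tuft cell formation, was bright in every population and differed by less. Its brightest set, 1419156_PM_at, read 8.98, 8.85 and 8.93 in Mex3a+ Lgr5+ cells of MKL347, MKL358 and MKL367, and 8.95, 8.69 and 8.71 in Mex3a+ Lgr5- cells. It read 8.61, 8.58 and 8.62 in Mex3a- Lgr5+ cells and 8.24, 8.11 and 8.51 in Mex3a- Lgr5- cells. Every Mex3a+ value was above every Mex3a- value. The difference was 0.41 (SE 0.079, adjusted p = 0.00301), or 1.33-fold. Of the other 4 Sox4 sets, 3 were called, with differences of 0.34, 0.48 and 0.66 (adjusted p = 0.00735, 0.0187 and 0.0268), and their ranges overlapped. The fifth, 1419157_PM_at, had a difference of 0.22 (SE 0.17, adjusted p = 0.379). All 5 were higher in Mex3a+ cells in each mouse. Over all 30 Sox sets with no filter, 8 had no overlap between Mex3a+ and Mex3a- arrays (5 of Sox11, 2 of Sox6 and this Sox4 set), each with the higher values on Mex3a+ arrays, beside 3.46% of all 28898 sets in that direction and 5.78% in the other. Of the tested sets 6 did so (4.32% and 8.16% of all tested), of which 2 Sox11 sets had been tested only through their Mex3a+ arrays.

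Sox12, the third member, gave 5.69, 5.39 and 5.25 in Mex3a+ Lgr5+ cells and 5.77, 5.31 and 5.38 in Mex3a+ Lgr5- cells with set 1455562_PM_at. It gave 5.03, 5.32 and 4.89 in Mex3a- Lgr5+ cells and 4.83, 4.93 and 4.73 in Mex3a- Lgr5- cells. The Mex3a- Lgr5+ array of MKL358 reached the Mex3a+ range, and the others lay below it. The difference was 0.51 (SE 0.11, adjusted p = 0.00537). A second tested set, 1456882_PM_at, had a difference of 0.23 (SE 0.13), which did not pass without pairing (adjusted p = 0.216) and did with it (adjusted p = 0.0405).

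**Figure D2:**
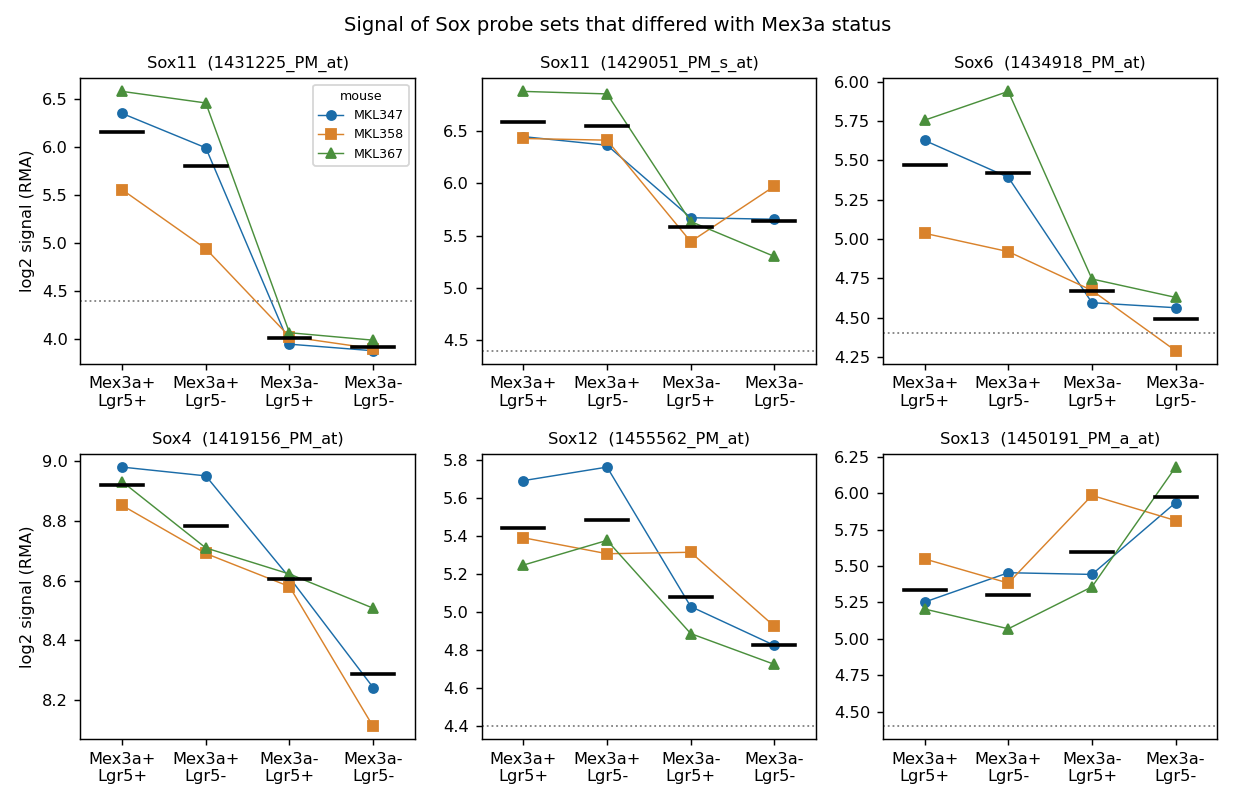
Log2 signal (vertical axis, RMA) in the 4 populations (horizontal axis) for 6 Sox probe sets called by Mex3a status, with a symbol and line for each mouse, a black bar for the mean of 3 arrays and a dotted line at the filter level of 4.40 where it lies near the data. The Sox11 set 1431225_PM_at drops from 4.94 or more on Mex3a+ arrays to 4.07 or less on Mex3a- arrays, and Sox13 shows the opposite order.

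Within the D group the 3 genes went different ways. Sox6 was higher in Mex3a+ cells by 0.84 (1426018_PM_a_at, SE 0.16, adjusted p = 0.00324) and 0.86 (1434918_PM_at, SE 0.17, adjusted p = 0.00295). Its set 1427677_PM_a_at, above the filter level on Mex3a+ arrays alone, differed by 0.77 (SE 0.15, adjusted p = 0.00385 with no filter). Set 1434918_PM_at read 5.63, 5.04 and 5.75 in Mex3a+ Lgr5+ cells of MKL347, MKL358 and MKL367, and 5.39, 4.92 and 5.94 in Mex3a+ Lgr5- cells. It read 4.60, 4.67 and 4.75 in Mex3a- Lgr5+ cells and 4.56, 4.29 and 4.63 in Mex3a- Lgr5- cells. The Mex3a+ arrays stood above the Mex3a- arrays without overlap, and as with Sox11 the difference was smallest in MKL358 (0.50, against 0.93 and 1.16). The 1427677_PM_a_at ranges met, at 4.28 on the lowest Mex3a+ array and 4.31 on the highest Mex3a- array.

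Sox13, alone among the 10 genes, was called lower in Mex3a+ cells. Its single probe set read 5.25, 5.55 and 5.21 in Mex3a+ Lgr5+ cells and 5.45, 5.38 and 5.07 in Mex3a+ Lgr5- cells. It read 5.44, 5.98 and 5.36 in Mex3a- Lgr5+ cells and 5.93, 5.81 and 6.18 in Mex3a- Lgr5- cells. The double negative arrays were above all Mex3a+ arrays, while the Mex3a- Lgr5+ arrays overlapped with them. The difference was -0.47 (SE 0.12, adjusted p = 0.0171), at -0.33, -0.43 and -0.63 in the 3 mice. Sox5 showed no such difference with its tested set, whose values ranged from 6.26 to 6.84 on Mex3a+ arrays and from 6.25 to 6.75 on Mex3a- arrays. The Sox5 difference was 0.025 with a 95% interval of -0.19 to 0.24 (adjusted p = 0.883), and its sign turned with median centring of the arrays (-0.0082). The other 3 Sox5 sets lay below the filter, with differences of 0.079 to 0.17.

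Sox9, the E group member, was bright in all 4 populations, and the ranges of the populations overlapped across mice. Part of its Mex3a differences passed only once arrays were paired by mouse. Set 1451538_PM_at had means of 9.40 ± 0.20 (SD, n = 3) in Mex3a+ Lgr5+ cells, 9.22 ± 0.19 in Mex3a+ Lgr5- cells, 9.17 ± 0.19 in Mex3a- Lgr5+ cells and 9.13 ± 0.33 in Mex3a- Lgr5- cells. MKL358 had the lowest value of the 3 mice in each population. The Mex3a difference was 0.16 (SE 0.12, 95% interval -0.11 to 0.42, adjusted p = 0.376). Paired by mouse, the 3 differences of 0.20, 0.21 and 0.06 passed the test (adjusted p = 0.0258). The dimmer tested set gave 0.16 as well (SE 0.11, adjusted p = 0.297, and 0.0598 with pairing).

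Sox21, of the B group, was high in double positive cells and lowest in double negative cells in each mouse. Its single probe set read 9.17, 9.54 and 9.47 in Mex3a+ Lgr5+ cells of MKL347, MKL358 and MKL367, and 9.06, 9.47 and 9.19 in Mex3a+ Lgr5- cells. It read 8.78, 9.45 and 8.95 in Mex3a- Lgr5+ cells and 8.22, 8.56 and 8.49 in Mex3a- Lgr5- cells. The order of the 4 populations was the same in all 3 mice. Across mice the first 3 populations overlapped, and the double negative arrays lay below all others. The Mex3a difference was 0.58 (SE 0.13, adjusted p = 0.00566), or 1.49-fold, at 0.61, 0.50 and 0.61 in the mice.

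Of the F group, Sox7 was not tested: its sets ranged from 3.19 to 4.47 over the 12 arrays, and a single value exceeded the filter level. Sox17 exceeded the filter level on 4 arrays with set 1429177_PM_x_at, a set whose suffix marks probes shared with other sequences. It read 3.77, 3.80 and 4.37 in Mex3a+ Lgr5+ cells, 5.09, 3.87 and 5.06 in Mex3a+ Lgr5- cells, 3.57, 3.34 and 4.22 in Mex3a- Lgr5+ cells and 4.41, 3.58 and 5.04 in Mex3a- Lgr5- cells. Its Mex3a difference was 0.30 (SE 0.28, 95% interval -0.31 to 0.91, both without pairing, adjusted p = 0.508 in limma with no filter). In MKL347, MKL358 and MKL367 it was 0.44, 0.37 and 0.088. Paired by mouse it did not pass either (adjusted p = 0.109 in limma with no filter). The values of MKL358 were low in all populations, so the spread between mice was wide.

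The calls by Mex3a status depended on the mice in the fit without pairing. Without MKL347, 3 of the 19 Sox sets remained called (Sox11 1429051_PM_s_at, Sox11 1431225_PM_at and Sox21), among 1362 sets in all against 5026 with all mice. Without MKL367, 4 remained (the same Sox11 sets, Sox4 1419156_PM_at and Sox6 1434918_PM_at), among 2207 in all. Without MKL358, the same 13 as with all mice were called, among 5189 in all. Sox13 lost its call without MKL347 (adjusted p = 0.115) and without MKL367 (adjusted p = 0.136), with differences of -0.53 and -0.38. With the arrays paired by mouse, 13, 14 and 15 Sox sets were called without MKL347, MKL358 and MKL367, beside 5271, 7100 and 5462 of all 19883 sets. Sox4 1433575_PM_at also lost its call without any 1 of 6 single arrays (adjusted p = 0.0526 to 0.0650).

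By Lgr5 status, no Sox probe set passed the test without pairing, and Sox21 and a pair of Sox4 sets did with it; Sox17, tested only through its Lgr5- arrays, was lower in Lgr5+ cells when all sets were fitted with pairing and no filter. Averaged over both Mex3a states, limma without pairing called 0 of 19 Sox sets, beside 0.0352% of all tested sets. The count at an unadjusted p under 0.05 was 5 of 19 for Sox, with Sox17 among them, and 1186 of 19883 for all sets. With pairing 4 Sox sets were called, beside 1.62% of all, and the same number with no filter, beside 0.882% of all. They were Sox21 (0.39 higher in Lgr5+ cells, SE 0.13 without pairing, adjusted p = 0.541 without and 0.00771 with pairing), Sox4 1449370_PM_at (0.34, SE 0.078, 0.286 and 0.0334), Sox4 1419155_PM_a_at (0.37, SE 0.13, 0.634 and 0.0369) and Sox17 (-0.66, SE 0.28). The Sox17 adjusted p was 0.884 without and 0.0335 with pairing, with no filter in either fit, and its 6 Lgr5+ values, 3.34 to 4.37, all lay below the filter level.

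These rested on few mice. Sox21 was higher in Lgr5+ cells by 0.33, 0.48 and 0.37 in MKL347, MKL358 and MKL367, and its paired adjusted p was 0.0761, 0.0344 and 0.0514 when each was left out in turn. Sox4 1449370_PM_at was higher by 0.35, 0.43 and 0.23. Sox17 had differences of -1.08, -0.16 and -0.75. In paired limma fits that kept the filter, it lost its call without MKL347 (adjusted p = 0.249) and without MKL367 (adjusted p = 0.19). Its second set, below the filter, had a difference of -0.48 but was not lower in every Mex3a state of every mouse. Without MKL347 none of the 4 passed. Of all 30 Sox sets, tested or not, 17 were higher in Lgr5+ cells in each of the 3 mice, 3 were lower in each and 10 were mixed. Among all 28898 sets, 16.8% were higher in each mouse and 15.1% lower. Of the 19 tested Sox sets 12 were higher in each mouse, beside 19.8% of all tested sets. Sox17, tested only through its Lgr5- arrays, was the 1 lower in each, beside 15.1% of all tested sets. The Sox11 set 1429051_PM_s_at had an Lgr5 difference of -0.0099 (95% interval -0.30 to 0.28), beside a Mex3a difference of 0.95 on the same arrays.

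**Figure D3:**
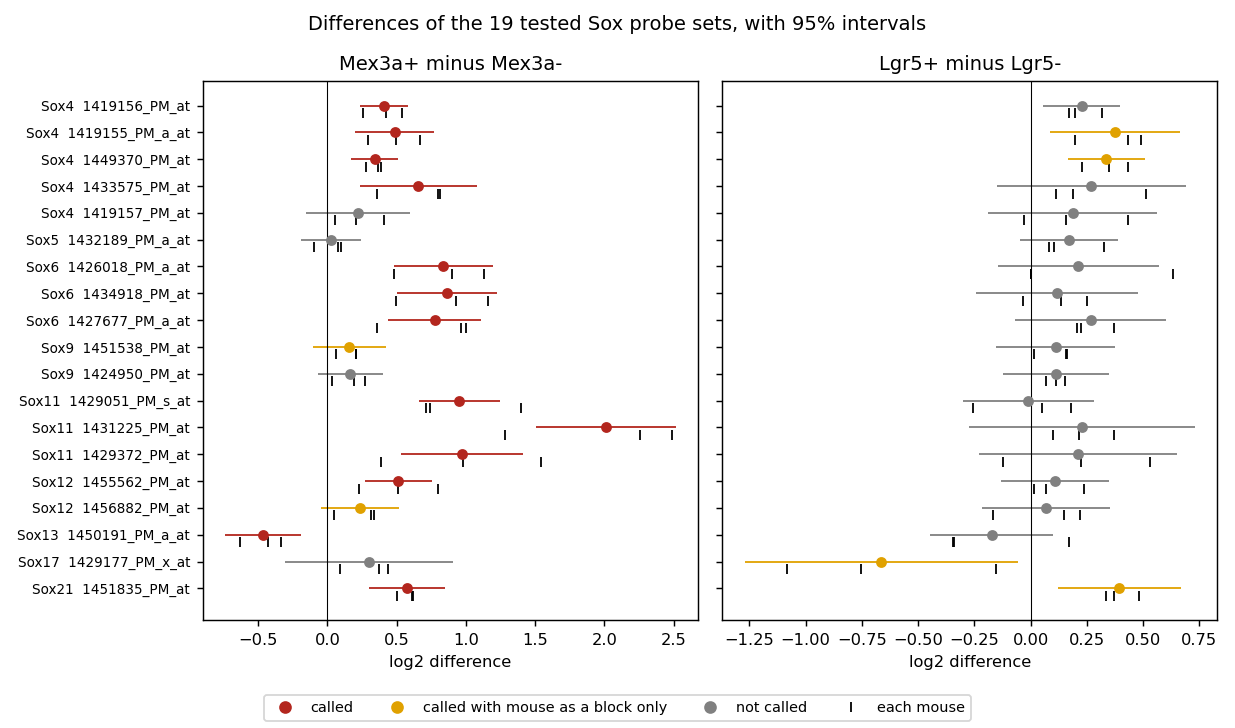
Log2 differences (horizontal axes) of the 19 tested Sox probe sets for Mex3a status (left) and Lgr5 status (right), as points with 95% intervals from limma without pairing and black ticks for the 3 mice. Red points were called, yellow points were called only with the mouse as a block. Sox11 1431225_PM_at lies farthest right on the left panel at 2.01, and no point on the right panel is red.

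The single positive and double negative populations allow each marker to be followed within a sorted state of the other. The sorted state did not hold the Lgr5 transcript level constant. Lgr5 was higher in Mex3a+ cells by 0.82 (limma adjusted p = 0.00148) and by 0.61 with its other probe set (adjusted p = 0.00362). Its brighter set had means of 8.38 in Mex3a+ and 8.02 in Mex3a- cells that were Lgr5+. In Lgr5- cells these were 7.29 and 6.01. Within Lgr5+ cells, 5 Sox sets were called by Mex3a status, all higher (the 3 tested Sox11 sets and Sox6 1426018_PM_a_at and 1427677_PM_a_at), beside 6.90% of all sets (2.92% higher, 3.98% lower). Of these 5, 3 had been tested only through Mex3a+ arrays; with no filter 7 of all 30 Sox sets were called, all higher (2 of Sox6 and 5 of Sox11), beside 4.02% of all sets (1.74% higher). With pairing and the filter there were 12, beside 21.2%, the added ones being 4 of Sox4, the remaining Sox6 set, Sox9 1451538_PM_at (0.23, adjusted p = 0.0408) and Sox21 (0.34, adjusted p = 0.0125). Within Lgr5- cells, 7 were called (Sox11 1431225_PM_at and 1429051_PM_s_at, Sox6 1434918_PM_at, Sox4 1419156_PM_at, Sox12 1455562_PM_at and Sox21 higher, Sox13 lower), beside 15.3% of all (5.01% higher, 10.3% lower), and 13 with pairing, beside 30.7%. With no filter these were 8 of 30 (9.79% of all sets) and 16 of 30 with pairing (21.3%). Sox11 1431225_PM_at was higher by 2.15 in Lgr5+ cells (SE 0.33, adjusted p = 0.00488 with no filter) and by 1.87 in Lgr5- cells (SE 0.33, adjusted p = 0.0043 with no filter). Without MKL347, the fit without pairing called no Sox set in either state, beside 21 and 238 of all 19883 sets in Lgr5+ and Lgr5- cells. The paired fit called 4 in Lgr5+ and 9 in Lgr5- cells, beside 1965 and 3617 of all sets. Without MKL367 and without pairing, Sox11 1431225_PM_at was called in both states and Sox4 1419156_PM_at in Lgr5- cells.

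Within Mex3a+ cells no Sox set differed by Lgr5 status at an adjusted p under 0.05, with or without pairing (limma, 0.00% and 0.0453% of all sets called, 1 Sox set and 5 Sox sets at an unadjusted p under 0.05). Within Mex3a- cells 0 were called without pairing (0.0352% of all sets, 4 Sox sets at an unadjusted p under 0.05) and 1 with it (1.50% of all sets). This was Sox21, higher by 0.63 in Lgr5+ cells (SE 0.18, adjusted p = 0.468 without and 0.00363 with pairing), at 0.55, 0.89 and 0.45 in the mice. It was called with pairing without each mouse in turn (adjusted p = 0.0281 to 0.0444). In Mex3a+ cells the Sox21 difference was 0.16 (SE 0.18).

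The difference between those Lgr5 effects was itself tested as the interaction of both markers. For Sox21 it was -0.47 (SE 0.25), negative in each of the 3 mice, and did not pass (adjusted p = 1 without pairing and 0.341 with it). For Sox13 it was 0.41 (SE 0.25), and for Sox12 1455562_PM_at -0.29 (SE 0.22). No Sox set and no set in all passed the interaction test in limma with or without pairing (0.00% called, 0 Sox sets and 532 of all sets at an unadjusted p under 0.05 without pairing).

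**Figure D4:**
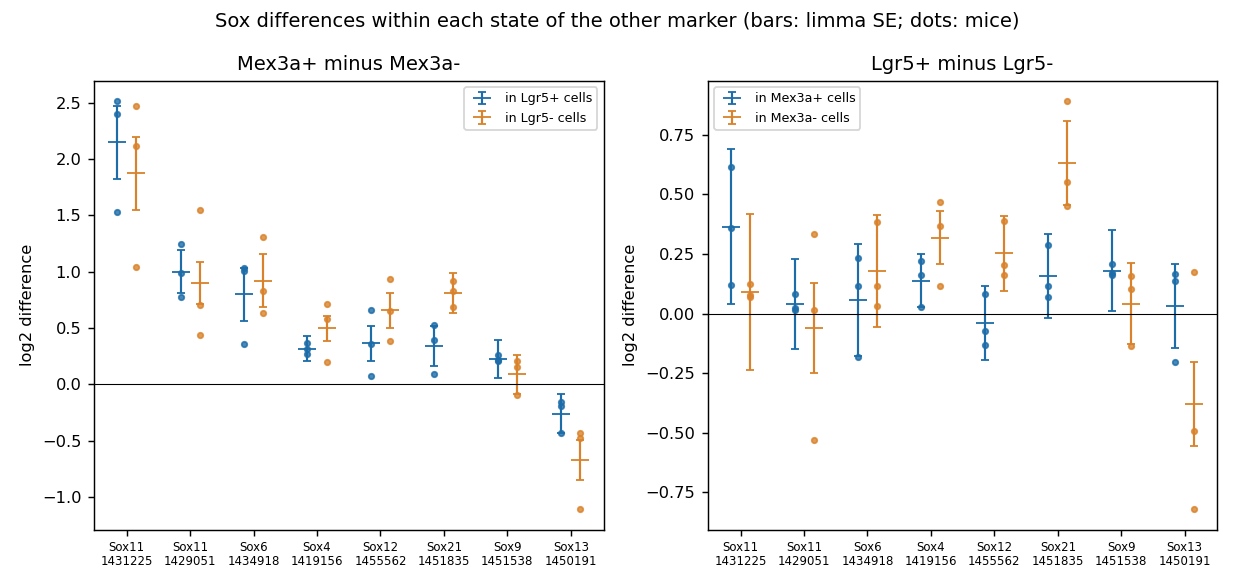
Log2 differences (vertical axes) of 8 Sox probe sets by Mex3a status within Lgr5+ and Lgr5- cells (left) and by Lgr5 status within Mex3a+ and Mex3a- cells (right), with the mean as a bar, limma's SE as whiskers and a dot for each mouse. Sox11 1431225_PM_at lies near 2 in both Lgr5 states, and the Sox21 Lgr5 difference is 0.63 in Mex3a- and 0.16 in Mex3a+ cells.

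**Figure D5:**
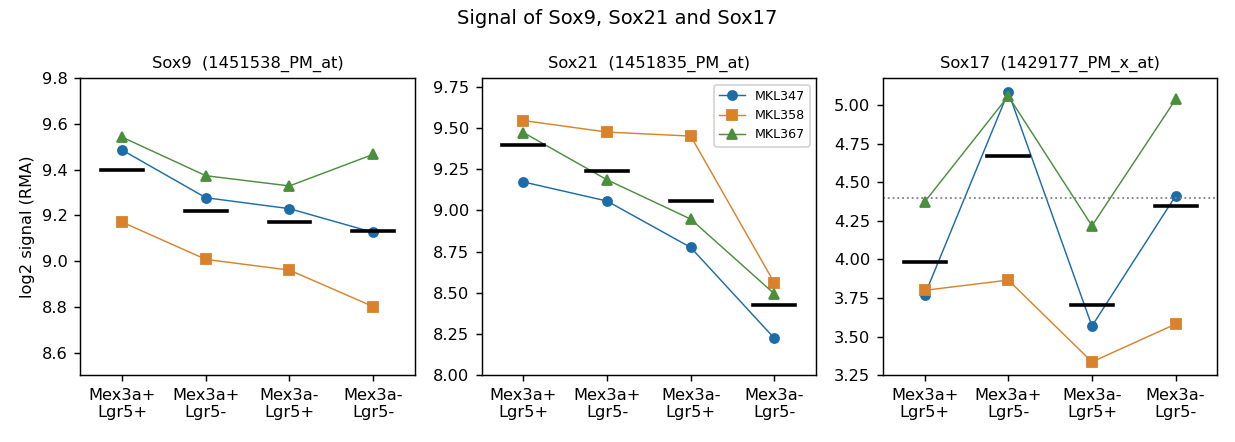
Log2 signal (vertical axes, RMA) of Sox9, Sox21 and Sox17 in the 4 populations (horizontal axes), with a symbol and line per mouse, black bars for means of 3 arrays and the filter level of 4.40 as a dotted line in the Sox17 panel. Sox21 falls in steps to its lowest values in double negative cells, Sox9 keeps within 8.80 to 9.54, and Sox17 is higher on the Lgr5- array than on the Lgr5+ array of the same mouse and Mex3a state.

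Of 10 further family members on the array, with Sry counted, 6 were tested at their brightest set, and 1 was called by Mex3a status, beside 25.3% of all tested sets. This was Sry, higher by 0.33 (SE 0.095, adjusted p = 0.0236). Its set 1450579_PM_x_at can match other sequences, as its suffix marks. Sox18, the F group member not among the 10, had a difference of 0.25 (SE 0.17, adjusted p = 0.292), Sox3 0.10 and Sox14 0.087. Sox1, Sox2, Sox8 and Sox30 lay below the filter. None of the 6 was called by Lgr5 status (limma, 0 at an unadjusted p under 0.05, and 0 with pairing).

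Sox9 and Sox4 are placed in the Wnt pathway, Sox9 downstream of Tcf/β-catenin, and 22 genes of that pathway were tested as a list. By Mex3a status 15 were higher and 3 lower, beside 9.59% and 15.7% of all tested sets, with a median difference of 0.83 beside -0.012 for all tested sets. The higher ones included the feedback inhibitor Apcdd1 (2.42, SE 0.25, adjusted p = 8.87e-05), the target Axin2 (0.67, SE 0.086, adjusted p = 0.000305), the transcription factor Prox1 (1.42, SE 0.18, adjusted p = 0.000328) and the secreted Wnt modulator Dkk2 (1.33, SE 0.22, adjusted p = 0.00135). The lower ones were the transcription factors Tcf7l1 (-0.79, adjusted p = 0.00201) and Tcf7l2 (-0.33, adjusted p = 0.0041), which bind β-catenin, and the surface receptor Cd44 (-0.56, adjusted p = 0.0115). By Lgr5 status Lgr5 itself was called, and with pairing also Axin2 (0.29, adjusted p = 0.0105) and Prox1 (0.48, adjusted p = 0.0122), both higher in Lgr5+ cells.

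Cartilage genes known as joint targets of Sox9, Sox5 and Sox6 were mostly dim, and 5 of 14 were tested. By Mex3a status 2 of the 5 were called, both higher, beside 9.59% of all tested sets called higher. Col2a1, the main collagen of cartilage, was higher in Mex3a+ cells by 0.46 (SE 0.11, adjusted p = 0.00716) and Col9a3 by 0.94 (SE 0.29, adjusted p = 0.0322). The proteoglycan gene Acan (-0.041) and Snorc (0.028) did not pass, and Col11a2 was the fifth. With pairing Col9a3 was also called higher in Lgr5+ cells (0.70, adjusted p = 0.000359). Of 9 tested genes of Paneth and deep crypt secretory cells, of which the former need Sox9, 2 were lower in Mex3a+ cells, beside 15.7% of all tested sets. They were Agr2 (-0.95, adjusted p = 0.00066) and Spink4 (-0.63, adjusted p = 0.00807), and none was higher without pairing. With pairing 3 were lower and 1 higher, beside 24.0% and 15.9% of all tested sets. The Paneth cell lysozyme Lyz1 had a difference of 0.014 (limma adjusted p = 0.916) and Itln1 0.38 (adjusted p = 0.348). Mmp7, a Paneth cell protease, had a difference of 0.24 (adjusted p = 0.226), and Reg4 -0.30 (adjusted p = 0.0772).

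Markers of other cells that express Sox genes were read beside these results. By Mex3a status, 9.59% of all tested sets were called higher and 15.7% lower, and a count near these shares is no result about its markers. For endothelium, where Sox7, Sox17 and Sox18 are known, 14 of 18 markers were tested, 2 were higher (Flt1 by 1.08, Ecscr by 0.68) and 1 lower (Egfl7 by -0.26) in Mex3a+ cells. The summed linear signal of the list ranged from 1005 to 1287 in Mex3a+ Lgr5+, 1048 to 1205 in Mex3a+ Lgr5-, 772 to 908 in Mex3a- Lgr5+ and 738 to 970 in Mex3a- Lgr5- cells. The markers differed in brightness: population means were 8.53 to 9.26 for Ecscr, 5.95 to 7.26 for Flt1, 5.34 to 5.45 for Eng, 4.41 to 4.82 for Pecam1, 4.16 to 4.61 for Cdh5 and 3.92 to 4.21 for Kdr. By Lgr5 status 0 of the 14 were called in limma without pairing (1, Pecam1, at an unadjusted p under 0.05), beside 0.0352% of all tested sets, and 0 with pairing, beside 1.62%. For enteric glia and neural cells, known for Sox10 and Sox11, 5 of 12 were tested, with Uchl1 higher (0.74) and Ret, L1cam and Erbb3 lower (-0.72, -1.25 and -0.39), and their sums ranged from 463 to 569 in Mex3a+ Lgr5+, 426 to 487 in Mex3a+ Lgr5-, 571 to 715 in Mex3a- Lgr5+ and 591 to 759 in Mex3a- Lgr5- cells. Among tuft cell markers, beside Sox4, 6 of 14 were tested, with Avil called higher (0.72) and Sh2d6 lower (-0.76). Dclk1 (-0.88, limma adjusted p = 0.0677), Trpm5 (-0.12) and Alox5 (-0.11) were also lower but did not pass, and Plcb2 differed by 0.0081. The sums, to which Avil contributed most (means of 8.81 to 9.71), were 919 to 1085, 1030 to 1119, 552 to 856 and 678 to 1132 in the same order of populations. Fibroblast and smooth muscle markers gave 1 of 12 higher (Vim, 1.98), with sums of 2739 to 4365, 2242 to 3257, 1345 to 3684 and 1230 to 1710, while the fibroblast collagen Col3a1 had a difference of -0.93 (adjusted p = 0.343). A single array stood apart for this list. Averaged relative to each gene's own mean, the list stood at 0.78 on the Mex3a- Lgr5+ array of MKL367. On the remaining arrays it stood at -0.23 to 0.071. Myeloid markers gave 2 of 12 lower (Cd14 by -1.02, Tyrobp by -0.84), with sums of 3657 to 4184, 3714 to 4109, 3731 to 4673 and 4223 to 4746. Lyz2, with means of 11.69 to 11.74 and a difference of -0.027, made up most of these sums. Of lymphocyte markers 0 of 8 were called (limma, 0 at an unadjusted p under 0.05), and of enteroendocrine markers 2 of 12 were higher (Cpe 1.42, Scg3 0.22). The part of these cells in the Sox differences was not tested.

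The genes most like a Sox gene across the arrays were found by Pearson's r over the 12 arrays after each mouse's mean was removed. The 12 points share mice and populations, and these are the highest of 19883 values, so they serve as a description. For Sox11 1429051_PM_s_at they were Vav2 (r = 0.976), Mark1 (0.975) and Kctd1 (0.971). For Sox4 1419156_PM_at they were Ulk1, Mmp14 and Smarcc1 (0.992 each), for Sox6 1426018_PM_a_at Cyp4v3 (0.983), Pcdhb5 (0.975) and Plekhm3 (0.97), and for Sox12 1455562_PM_at Tulp3 (0.985), Entpd3 (0.977) and Marcksl1 (0.974). All 12 genes had higher signal in Mex3a+ cells, with log2 differences of 0.20 (Marcksl1) to 1.55 (Mark1). The direction follows from how they were chosen and is no separate result. Each of these Sox sets was itself called higher in Mex3a+ cells, and the genes were picked for the highest r with it.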

How the data were processed

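The authors deposited RMA values on the log2 scale, per the submitters' processing notes, which name no program or options; no further scaling was applied here. Of 45141 probe sets, 28898 have a single gene symbol in GEO's platform table, 551 have several, 15588 none, and 104 are controls. Each of the 19883 probe sets with 1 symbol above 4.40 on at least 3 arrays was fitted with limma 3.58.1 (R 4.3.3), with 1 mean per population over 12 arrays, an intensity trend and Benjamini-Hochberg adjustment over all of them. SEs and adjusted p-values are limma's, without pairing unless stated. The 7 comparisons were the average effect of either marker, the effect of either marker at a fixed state of the second one, and the interaction. The mouse in the titles pairs arrays: residuals from the group means correlated within a mouse at 0.345 to 0.689 (18 pairs) and between mice at -0.697 to 0.154 (48 pairs). Replicates are separate mice whose adenomas were pooled.

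Members, lists, tests and alternatives were chosen with earlier results of these data known. Named were all members, up to 4 genes with the smallest p of each list (further list members, such as Pecam1, Kdr, Eng, Tcf7l1, Tcf7l2, Cd44, Epcam, Krt8 and Col11a2, were named after their values were seen), Mex3a, Lgr5, and the 3 genes most like each of 4 members. Alternatives were the replicate block, filters, scalings, 1 value per gene, array weights, no trend, and leaving out arrays or mice. The test was checked on simulated data. Figures used matplotlib 3.10.9.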

Additional observations from a re-analysis of the deposited data

Results flagged for a closer look

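The Sox11 set 1453002_PM_at, which did not pass the filter, had opposite signs by Lgr5 status in the 2 Mex3a states. In Mex3a+ cells it was higher where Lgr5 was positive in all 3 mice, by 0.23 on average, and in Mex3a- cells it was lower in all 3, by -0.035. The difference of 0.26 between them was not tested.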

How the results depend on the processing

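No result changed direction while called. With the mouse as a replicate block, the called Sox probe sets numbered 15 by Mex3a status (13 without pairing), 4 by Lgr5 status (0), 12 by Mex3a status in Lgr5+ cells (5), 13 in Lgr5- cells (7) and 1 by Lgr5 status in Mex3a- cells (0). With pairing and without MKL347, MKL358 and MKL367 in turn, these became 0, 2 and 1 by Lgr5 status, beside 51, 112 and 95 of all 19883 sets. By Mex3a status in Lgr5+ cells they became 4, 10 and 8 (1965, 3724 and 2309 of all sets). In Lgr5- cells they became 9, 12 and 9 (3617, 5347 and 3737 of all sets). By Lgr5 status in Mex3a- cells the number was 1 each time. With 1 value per gene, 6 of 9 genes were called by Mex3a status, both with the brightest set and with the mean of all sets. Over all genes, 3422 of 12595 and 3438 of 11871 were called. In Lgr5+ cells 2 and 3 Sox genes were called, beside 1009 and 1037 of all genes. Array weights gave 8 in Lgr5+ cells, beside 3379 of all 19883 sets. Leaving out a mouse or an array gave 3 to 13 by Mex3a status, 0 to 7 in Lgr5+ cells and 0 to 11 in Lgr5- cells. Over all sets the ranges were 1362 to 5189, 21 to 1819 and 238 to 3178. Fewer samples entered each such fit, and the cause was not tested further. No filter gave 16 of 30 by Mex3a status, and with pairing 18, beside 5026 and 8318 of all 28898 sets. With pairing and no filter there were 4 by Lgr5 status, 14 in Lgr5+ cells, 16 in Lgr5- cells and 1 by Lgr5 status in Mex3a- cells. The shares of all sets were 0.882%, 14.0%, 21.3% and 0.858%. A filter at the 60th percentile gave 10 of 14, beside 4476 of 14149. A filter on the mean over the 12 arrays, added after the data were seen, gave 12 of 17, beside 4922 of 19145. Over all tested sets, pairing raised the calls by Mex3a status from 5026 to 7936 and by Lgr5 status from 7 to 323. Without MKL347 they fell to 1362 and 0, without MKL367 to 2207 and 3; array weights gave 17 by Lgr5 status. The block without each mouse and the block with no filter were also added after the data were seen. Sets near the filter level have few arrays above background, which limits Sox7, Sox17 and the dim Sox11 sets.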
